A study of Mus musculus with 6 samples.

Results

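The genes described here are 9 mouse genes grouped under iron and heme handling, namely Fth1, Ftl1, Slc40a1, Tfrc, Slc11a2, Slc11a1, Hmox1, Blvrb and Hpgd. They were measured by RNA-seq in CD45+CD11b+ cells sorted from the pancreas. They were listed by name, with no measured value in the rule, and each was taken by its Ensembl ID in the GENCODE vM21 annotation. All 9 were among the 21780 genes of the count table and among the 14429 that passed the filter on low counts. The cells came from wild-type C57BL/6 mice of 6 to 8 weeks, with both sexes used in the study, that had received an intraperitoneal injection of either 200 µl of PBS (3 libraries, the control group) or 1 mg of WGP in the same volume (3 libraries), and the pancreas was taken on day 7. WGP are whole β-glucan particles, hollow yeast cell walls rich in β-glucan that phagocytes take up through the receptor Dectin-1. Each library is described as a separate animal. The gate holds every CD11b+ leukocyte, so a level is an average over monocytes, macrophages, neutrophils, dendritic cells and other CD11b+ cells such as NK cells in whatever proportion the sort contained.

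Cells take up iron bound to transferrin through the transferrin receptor, move it out of the endosome through a divalent metal transporter, store it inside ferritin shells built of heavy and light chains, and release it through the exporter ferroportin. Macrophages also obtain iron from the heme of engulfed red blood cells, which heme oxygenase opens to biliverdin, carbon monoxide and iron. When iron is scarce the iron regulatory proteins bind short hairpins called iron-responsive elements, which blocks translation where the hairpin lies in a 5′ UTR and stabilises the mRNA where hairpins lie in a 3′ UTR. RNA-seq reads mRNA levels and does not see the translational arm of this control.

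Hairpins of the members that match a strict pattern are shown, because iron regulatory proteins act on mRNAs through such elements. The GENCODE vM21 transcripts were searched on the sense strand for a C, 5 bases of a stem, the loop CAGTGN and 5 bases that pair back with G-U pairs allowed. A match was found in 4 of 5 protein-coding transcripts of Fth1, 1 of 2 of Ftl1, 1 of 4 of Slc40a1 and 1 of 3 of Tfrc, and in none of the transcripts of the other 5 members. For comparison, 565 of 58797 protein-coding transcripts (0.961%) and 294 of 21901 genes (1.34%) held a match. Each line gives 30 bases 5′ to 3′ on the strand of the gene with the position in GRCm38, and capitals mark the loop.
Fth1, 5′ UTR, chr19:9982732-9982761, plus strand: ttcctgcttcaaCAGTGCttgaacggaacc
Ftl1, 5′ UTR, chr7:45459778-45459807, minus strand: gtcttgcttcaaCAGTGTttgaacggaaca
Slc40a1, 5′ UTR, chr1:45925464-45925493, minus strand: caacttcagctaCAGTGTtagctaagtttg
Tfrc, 3′ UTR, first hairpin, chr16:32631219-32631248, plus strand: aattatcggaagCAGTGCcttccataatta
Tfrc, 3′ UTR, next hairpin, chr16:32631598-32631627, plus strand: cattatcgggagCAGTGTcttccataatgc
Tfrc, 3′ UTR, next hairpin, chr16:32631663-32631692, plus strand: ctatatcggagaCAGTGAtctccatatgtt
Tfrc, 3′ UTR, last hairpin, chr16:32631710-32631739, plus strand: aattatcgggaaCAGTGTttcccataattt
The single matches found in each ferritin chain and in ferroportin lie in the 5′ UTR, and the 4 matches found in the transferrin receptor lie in the 3′ UTR. The labels first, next and last order these matches only, and hairpins of another form may lie beside them. A match is a description of the sequence, and a transcript without one has only been shown not to contain these letters in this arrangement. The pattern allows no other loop and no bulge within the stem. An iron-responsive element of another form, in Slc11a2 or any other member, would be missed.

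The libraries held 35334645 to 43341834 counts, and levels are given as CPM, counts scaled to the same library size after TMM normalization. Ptprc (CD45) and Itgam (CD11b), the markers of the sort, were present in all 6 libraries, Ptprc at 949 to 1043 CPM in PBS and 1536 to 1747 CPM in WGP and Itgam at 189 to 254 and 379 to 418 CPM. Marker transcripts of several cell types differed between the groups. Resident macrophage markers, Mrc1 among them, were called lower for 11 of 11 genes and summed to 5920, 11900 and 15200 CPM in PBS replicates 1 to 3 against 1130, 1630 and 1420 CPM in WGP. Markers of Ly6C-high monocytes, Ly6c2 among them, were called higher for 6 of 9 genes and summed to 832 to 1460 CPM in PBS against 3930 to 4330 CPM in WGP. In the other lists, 13 of 14 acinar genes such as Prss2 were called lower (429 to 725 CPM in WGP against 1690 to 6340 CPM in PBS), as were 7 of 7 B cell genes (93.9 to 182 against 381 to 2520 CPM). The stromal and endothelial list had a median log2 fold change of 2.10 with 1 of 10 genes called higher. Without WGP replicate 2 that list had 1 called higher and 3 called lower. Of 9 T and NK cell genes 1 was called higher and 1 lower. The neutrophil list had 1 of 10 genes called higher and 1 called lower, with 8 of 10 at a lower level in WGP and a median log2 fold change of −0.82. The platelet list summed to 265 to 454 CPM in PBS and 15.5 to 21.9 CPM in WGP with 1 of 4 tested genes called lower (Pf4, named after its values were seen), and the dendritic cell list to 266 to 268 and 116 to 218 CPM with 1 of 8 called lower.

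A pair of libraries stood apart. PBS replicate 1 had the lowest macrophage sum and the highest neutrophil sum of its group (6010 CPM against 3470 and 2310 CPM, S100a8 among the genes). It also had the highest B cell sum (2520 CPM against 652 and 381 CPM), and without it 5 of 7 B cell genes were called. It had 0 counts of 4 Y-linked genes where PBS replicates 2 and 3 had 8972 and 10063. The WGP libraries had 0, 0 and 1 such counts, so Y-linked counts, and with them the likely sex of the mice, differed along with the treatment. A fit with Y-linked counts as a term therefore compares WGP with PBS replicate 1, and in it 0 stromal genes were called higher and 1 lower. WGP replicate 2 carried the most stromal and endothelial transcripts (1890 CPM against 82.4 to 289 CPM in the other 5 libraries) and the most erythroid transcripts (209 CPM against 35.2 and 32.9 CPM in the other WGP libraries and 116 to 141 CPM in PBS). Without it 5 of 8 erythroid genes were called lower in WGP, against 1 of 8 with it. Hbb-bs stood at 120.5 CPM there, at 17.1 and 19.96 CPM in the other WGP libraries and at 54.6 to 65.1 CPM in PBS, while Klf1 and Epb42, which mark erythroid precursors, were at 0 in all 6 libraries.

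**Figure D1:**
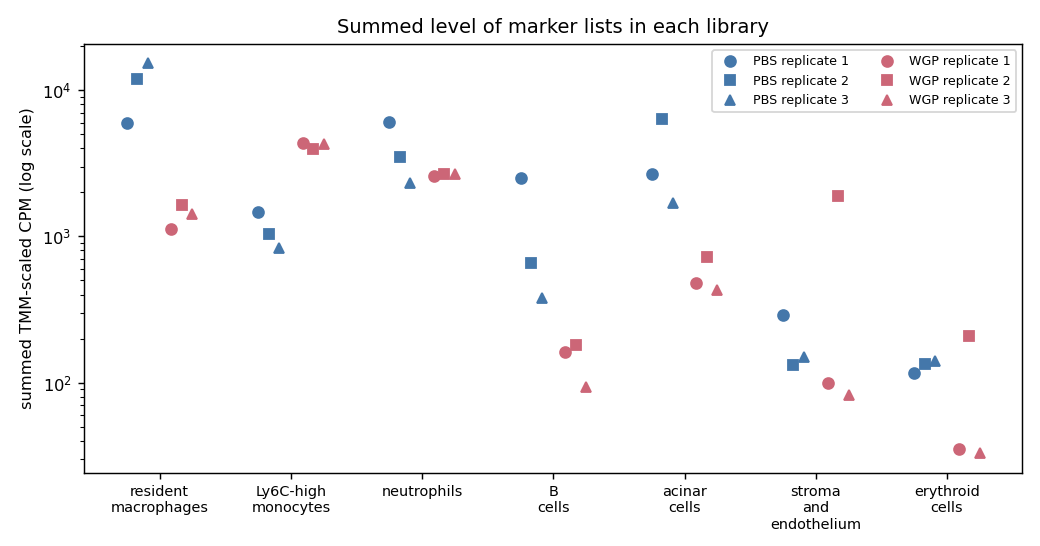
Summed TMM-scaled CPM of 7 marker lists (log axis), with 1 point per library, PBS in blue and WGP in red. Resident macrophage markers span 5920 to 15200 CPM in PBS and 1130 to 1630 CPM in WGP, and WGP replicate 2 stands apart in the stromal (1890 CPM) and erythroid (209 CPM) lists.

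Of the 9 genes, Fth1 rose and Slc40a1, Tfrc and Hpgd fell in WGP. A gene was called where edgeR's quasi-likelihood test gave an adjusted p no higher than 0.05 and the log2 fold change was 1 or more in size. By this rule 4 of 9 members (44.4%) were called against 9.49% of all genes tested, with 1 called higher (background 4.53%) and 3 called lower (background 4.96%). The 3 called lower include Hpgd, which does not encode an iron or heme protein. At the adjusted p alone 5 members passed, 2 higher and 3 lower (55.6%, background 14.4%, of which 7.54% higher and 6.81% lower). An unadjusted p below 0.05 was reached by 7 members (background 26.0%). The groups did not overlap for 6 members (66.7%, background 32.0%). The median log2 fold change of the members was −0.56, against −0.05 over all genes tested. In a sorted bulk sample fewer cells of a type and less RNA per cell cannot be told apart, and this holds for every level below.

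**Figure D2:**
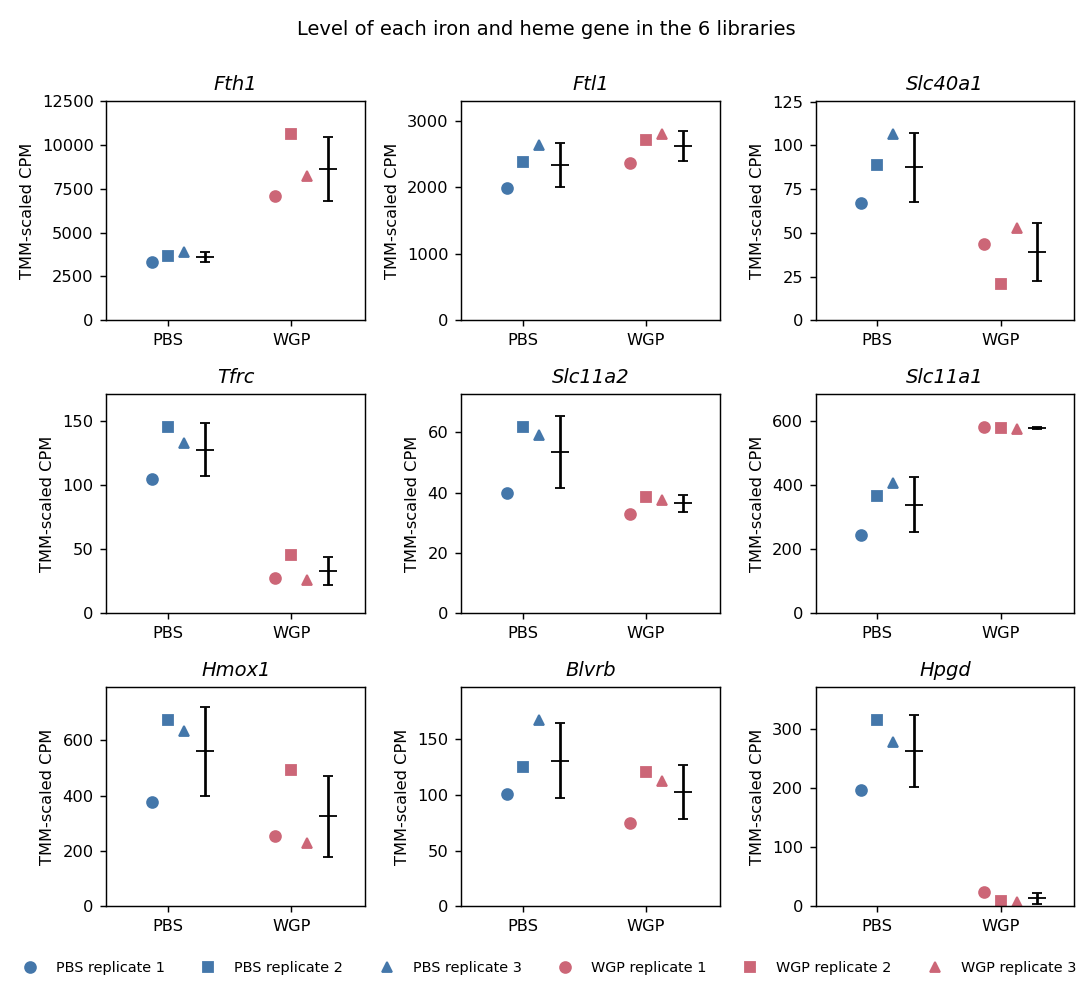
TMM-scaled CPM of the 9 genes in the 6 libraries, 1 panel per gene with its own axis from 0, with the mean and SD of each group drawn beside the points. The groups lie apart for Fth1, Slc40a1, Tfrc, Slc11a2, Slc11a1 and Hpgd and overlap for Ftl1, Hmox1 and Blvrb.

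Of the ferritin chains that store iron, the heavy chain was called and the light chain was not. Fth1 (ENSMUSG00000024661, GRCm38 chromosome 19, 9980598 to 9985098) encodes the heavy chain, which oxidises iron for storage. Its level was 3324, 3666 and 3883 CPM in PBS and 7068, 10598 and 8207 CPM in WGP. Every WGP library lay above every PBS library, with WGP replicate 2 the highest. The mean went from 3624 ± 282 to 8624 ± 1802 CPM (SD, n = 3 each), a 2.38-fold rise with a log2 fold change of 1.25 (SE 0.19, 95% interval 0.84 to 1.66, adjusted p = 0.00134). Without PBS replicate 1 and WGP replicate 2 the log2 fold change was 1.01, and Fth1 was called in 18 of 18 alternatives. Fth1 took 0.362 to 0.392% of all counts in PBS, where it ranked 10th to 18th among genes by count, and 0.681 to 1.01% in WGP, where it ranked 4th to 6th.

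Ftl1 (ENSMUSG00000050708, chromosome 7, 45457944 to 45459884) encodes the light chain, which favours mineral formation inside the shell. It stood at 1988, 2385 and 2637 CPM in PBS and at 2356, 2702 and 2794 CPM in WGP. The groups overlapped. The log2 fold change was 0.16 (SE 0.16, 95% interval −0.20 to 0.53, adjusted p = 0.571). No alternative called it, with values from 0.03 without PBS replicate 1 and WGP replicate 2 to 0.40 with Y-linked counts as a term. The annotation names 2 Ftl and 5 Fth pseudogenes, none of which is in the count table, so the part of ferritin reads that such copies could have drawn is unknown, and Ftl1 also overlaps an antisense gene model.

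The ferritin chains were therefore compared within each library as counts per kilobase of exon, a ratio that does not depend on the scaling between libraries. The Fth1 to Ftl1 ratio was 0.646, 0.594 and 0.569 in PBS and 1.16, 1.52 and 1.14 in WGP. Every WGP ratio was above every PBS ratio. The size of each ratio rests on the merged exon lengths of 3469 bases for Fth1 and 1340 bases for Ftl1, and without the length term Fth1 was above Ftl1 in all 6 libraries, so which chain was the more abundant in PBS is not settled. The difference between the groups does not depend on the lengths. The ratio was 2.09-fold higher in WGP (log2 difference 1.06, exact two-sided permutation test p = 0.1, which is the smallest p that 3 against 3 allows).

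**Figure D3:**
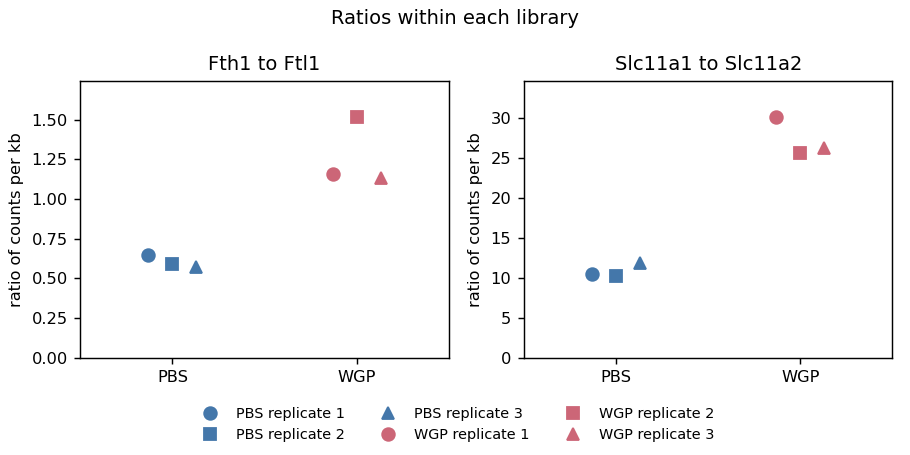
Ratio of Fth1 to Ftl1 (left) and of Slc11a1 to Slc11a2 (right), each from counts per kilobase of exon within 1 library, shown as 1 point per library. The Fth1 to Ftl1 ratio lies between 0.569 and 0.646 in PBS and between 1.14 and 1.52 in WGP, and the Slc11a1 to Slc11a2 ratio between 10.2 and 11.8 and between 25.6 and 30.1.

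The mRNA of the exporter was lower in WGP. Slc40a1 (ENSMUSG00000025993, chromosome 1, 45908068 to 45926523) encodes ferroportin. Its level was 67.1, 88.7 and 106 CPM in PBS and 43.5, 20.6 and 52.5 CPM in WGP. The groups lay apart, with WGP replicate 2 the lowest. The mean fell from 87.4 ± 19.6 to 38.9 ± 16.4 CPM (SD, n = 3 each), 2.25-fold, with a log2 fold change of −1.17 (SE 0.31, 95% interval −1.86 to −0.47, adjusted p = 0.0315). The call held in 13 of 18 alternatives. It was lost with Y-linked counts as a term (−0.79, adjusted p = 0.273), and on leaving out PBS replicate 2, PBS replicate 3 or WGP replicate 1 (adjusted p from 0.0724 to 0.0938). It was also lost on leaving out WGP replicate 2, where the log2 fold change of −0.86 missed the fold threshold. Leaving out PBS replicate 1 and WGP replicate 2 together gave −1.025, a value that was called.

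The receptor for transferrin-bound iron fell as well. Tfrc (ENSMUSG00000022797, chromosome 16, 32608920 to 32632794) encodes transferrin receptor 1. It was at 105, 145 and 133 CPM in PBS and at 27.2, 45.8 and 25.9 CPM in WGP. The highest WGP library was below the lowest PBS library. The mean fell from 128 ± 20.8 to 33.0 ± 11.1 CPM (SD, n = 3 each), 3.87-fold, with a log2 fold change of −1.95 (SE 0.24, 95% interval −2.49 to −1.41, adjusted p = 0.000419). It was called in 18 of 18 alternatives, with log2 fold changes from −2.39 to −1.66.

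The Slc11 transporters of endosomes and phagosomes had log2 fold changes of opposite sign. Slc11a2 (ENSMUSG00000023030, chromosome 15, 100387898 to 100425072) encodes DMT1, which carries ferrous iron out of the endosome that the transferrin receptor delivers. Its level was 39.7, 61.7 and 59.2 CPM in PBS and 33.1, 38.6 and 37.6 CPM in WGP. All WGP libraries were below all PBS libraries, but the log2 fold change of −0.56 (SE 0.21, 95% interval −1.02 to −0.09) did not pass (adjusted p = 0.114). It passed the adjusted p, below the fold threshold, in 2 of 18 alternatives. These were without PBS replicate 1 (−0.73, adjusted p = 0.0179) and without PBS replicate 1 and WGP replicate 2 (−0.78, adjusted p = 0.0158). With Y-linked counts as a term the value was −0.13. The gene overlaps a gene model on the opposite strand, and the strand setting of the counting is not given in the sources used here.

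Slc11a1 (ENSMUSG00000026177, chromosome 1, 74375195 to 74386062) encodes NRAMP1, the metal pump of the phagosome membrane. C57BL/6 mice carry an allele whose protein does not function, so the level is that of an mRNA without the protein's activity. It was at 243, 367 and 407 CPM in PBS and at 579, 577 and 573 CPM in WGP. The WGP libraries were nearly equal and lay above all PBS libraries. The mean was 339 ± 85.8 CPM in PBS and 577 ± 3.15 CPM in WGP (SD, n = 3 each), 1.70-fold higher in WGP with a log2 fold change of 0.77 (SE 0.19, 95% interval 0.34 to 1.19, adjusted p = 0.0224). It passed the adjusted p and stayed below the fold threshold. With Y-linked counts as a term it was called (1.25, adjusted p = 0.00161), and the adjusted p was missed without PBS replicate 2, WGP replicate 1 or WGP replicate 3 (at most 0.0699).

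The ratio of Slc11a1 to Slc11a2 per kilobase of exon was 10.5, 10.2 and 11.8 in PBS and 30.1, 25.6 and 26.2 in WGP. It was 2.52-fold higher in WGP (log2 difference 1.33, exact two-sided permutation test p = 0.1, again the smallest p possible). Both groups were tight, and no WGP library came near the PBS range.

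Heme breakdown showed no called member. Hmox1 (ENSMUSG00000005413, chromosome 8, 75093621 to 75100589) encodes the inducible heme oxygenase. Its level was 376, 672 and 633 CPM in PBS and 255, 494 and 228 CPM in WGP. The groups overlapped, because WGP replicate 2, the library rich in globin mRNA, was above PBS replicate 1, the library poor in macrophage markers. The log2 fold change was −0.78 (SE 0.31, 95% interval −1.47 to −0.10, adjusted p = 0.131).

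The value of Hmox1 turned on these libraries. Without PBS replicate 1 it was −1.005 (adjusted p = 0.0407), without WGP replicate 2 it was −1.21 (adjusted p = 0.0107), and without both it was −1.44 (adjusted p = 9.38e-06), each a call. Without PBS replicate 2, PBS replicate 3, WGP replicate 1 or WGP replicate 3 it was −0.68 to −0.58 (adjusted p from 0.276 to 0.358). With Y-linked counts as a term, which leaves PBS replicate 1 as the PBS reference, it was −0.21 (adjusted p = 0.787). DESeq2's Wald test (adjusted p = 0.0489) and the fit with a replicate block (0.0419) passed the adjusted p with a fold below the threshold. The part of the erythroid and macrophage transcripts in these values was not tested.

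Blvrb (ENSMUSG00000040466, chromosome 7, 27447978 to 27466144) encodes biliverdin reductase B, which reduces flavins and biliverdin isomers other than the main one made by heme oxygenase. It was at 101, 125 and 167 CPM in PBS and at 74.8, 121 and 112 CPM in WGP. The groups overlapped, and the log2 fold change of −0.35 (SE 0.23, 95% interval −0.86 to 0.15) did not pass (adjusted p = 0.374). Leaving out libraries moved it between −0.64 and −0.14, and no alternative called it.

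Hpgd had the largest change of the 9. Hpgd (ENSMUSG00000031613, chromosome 8, 56294585 to 56321043) encodes 15-hydroxyprostaglandin dehydrogenase, which inactivates prostaglandins and is not an iron or heme protein. Its level was 196, 315 and 279 CPM in PBS and 24.8, 9.24 and 7.55 CPM in WGP. No WGP library came near the PBS range. The mean fell from 263 ± 60.7 to 13.9 ± 9.50 CPM (SD, n = 3 each), 19.0-fold, with a log2 fold change of −4.25 (SE 0.44, 95% interval −5.22 to −3.28, adjusted p = 0.000144). It was called in 18 of 18 alternatives, from −4.97 to −3.83. With PBS replicate 1 and WGP replicate 2 left out it was −4.21.

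**Figure D4:**
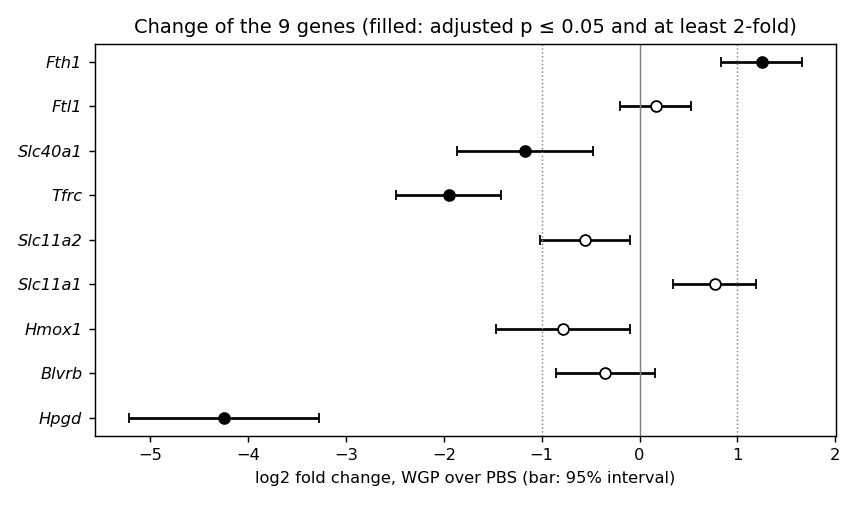
Log2 fold change of WGP over PBS for the 9 genes with its 95% interval, filled where the adjusted p was at most 0.05 and the change at least 2-fold (dotted lines at −1 and 1). Fth1 (1.25), Slc40a1 (−1.17), Tfrc (−1.95) and Hpgd (−4.25) are filled.

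Among themselves the members spanned a wide range of levels. In PBS the order of mean CPM per kilobase of exon was Ftl1 (1744), Fth1 (1045), Hmox1 (320), Hpgd (157), Slc11a1 (91.5), Blvrb (47.0), Tfrc (20.6), Slc40a1 (9.71) and Slc11a2 (8.43). The first place in PBS depends on the merged exon lengths, since in CPM Fth1 (3624) was above Ftl1 (2336) there too. Among neighbours in the PBS order only the library ranges of the last 2 overlapped. In WGP the order was Fth1 (2486), Ftl1 (1953), Hmox1 (186), Slc11a1 (156), Blvrb (36.9), Hpgd (8.23), Slc11a2 (5.73), Tfrc (5.33) and Slc40a1 (4.32). There the neighbours Fth1 and Ftl1 overlapped, as did Hmox1 and Slc11a1, and so did each neighbour pair from Hpgd down to Slc40a1. Hpgd moved from place 4 to place 6, where its library range overlapped that of Slc11a2. These places also depend on the merged exon lengths. In CPM the WGP mean of Hpgd (13.9) was below those of Tfrc (33.0), Slc11a2 (36.4) and Slc40a1 (38.9).

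The libraries that stood apart did not order the members alike. PBS replicate 1, with the fewest macrophage transcripts of its group, had the lowest PBS level of all 9 members. Among the WGP libraries, replicate 2, with the most globin and stromal transcripts, had the highest level of Fth1, Tfrc, Slc11a2, Hmox1 and Blvrb and the lowest of Slc40a1. The part of these other transcripts in the members' levels was not tested.

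The genes with the profile nearest to Hpgd over the 6 libraries were Sema6d, Slco2b1 and Nes, at Euclidean distances of 0.688, 1.07 and 1.08 between centred profiles of log2 CPM with a pseudocount of 1 CPM, among 11680 genes with a mean of at least 1 CPM. Sema6d was at 60.9, 126 and 121 CPM in PBS and at 6.81, 4.10 and 3.13 CPM in WGP. For Tfrc they were Agpat3, Hykk and Cd99l2, at 0.289, 0.356 and 0.386. Hykk was at 0 to 0.965 CPM in WGP, below the pseudocount, so its distance depends on that choice. The same holds for Nes, which was at 2.20, 1.57 and 0.489 CPM in WGP. Agpat3 was at 101, 113 and 129 CPM in PBS and at 22.4, 38.8 and 23.8 CPM in WGP.

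Around the members, 62 other iron and heme genes of 4 lists were measured and 59 were tested. Of these 11 were called (18.6%, background 9.49%), 4 higher and 7 lower. In the list of iron transport and storage 22 of 24 genes were tested, with 1 called higher (background 4.53%), 4 called lower (background 4.96%) and a median log2 fold change of −0.21. Trf, the carrier transferrin, fell from 101, 188 and 183 CPM in PBS to 42.1, 34.5 and 45.1 CPM in WGP (log2 fold change −1.96, adjusted p = 0.000410). Cp, the ferroxidase ceruloplasmin that works beside ferroportin, fell too (log2 fold change −2.23, adjusted p = 0.000456). Hfe, the partner of transferrin receptors that is mutated in hemochromatosis, fell by 1.08 on the log2 scale (adjusted p = 0.00409), a call lost with Y-linked counts as a term and without PBS replicate 3. The groups of Trf, Cp and Hfe did not overlap.

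The remaining called genes of this list, named after their values were seen, were Slc22a17, a receptor for lipocalin-2 (−2.68, adjusted p = 0.00740), and Steap4, a ferrireductase (2.34, adjusted p = 0.00701, not called with Y-linked counts as a term). Slc25a37, the mitochondrial iron importer mitoferrin-1, passed the adjusted p but not the fold threshold (0.85, adjusted p = 0.00509). Ncoa4, the receptor that delivers ferritin to the lysosome, did so with less margin (−0.77, adjusted p = 0.0407), and missed the adjusted p in 7 of 18 alternatives (up to 0.328). Hamp, which encodes the hormone hepcidin that degrades ferroportin, was at 0 counts in all 6 libraries.

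Among the genes of iron sensing 10 of 11 were tested, with 1 called higher (background 4.53%), 1 called lower (background 4.96%) and a median of −0.24. Fbxl5, the iron-binding subunit of the ligase that degrades iron regulatory proteins, rose from 103, 94.8 and 101 CPM in PBS to 292, 485 and 265 CPM in WGP (log2 fold change 1.80, adjusted p = 0.000419). No library of the groups overlapped, and it was called in 18 of 18 alternatives. The mRNAs of the iron regulatory proteins themselves were not called, with log2 fold changes of 0.01 for Aco1 (adjusted p = 0.979) and 0.30 for Ireb2 (adjusted p = 0.311). Ndfip1, an adaptor through which DMT1 is marked for degradation, fell by 1.03 on the log2 scale (adjusted p = 0.00569) and lost its call in 4 of 18 alternatives. The next genes by p were Smad4 (0.31, adjusted p = 0.179) and Acvr1 (−0.49, adjusted p = 0.285).

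Heme synthesis, with 14 of 14 genes tested and a median of 0.14, had 1 gene called higher and 0 called lower (background 4.53% and 4.96%). DESeq2 and limma-voom gave the same counts, and 4 genes had an unadjusted p below 0.05. Alas1, the rate-limiting enzyme outside the erythroid lineage, rose from 58.6, 65.8 and 46.6 CPM in PBS to 206, 239 and 178 CPM in WGP (log2 fold change 1.86, adjusted p = 0.000100). All WGP libraries were far above all PBS libraries, and the call held in 18 of 18 alternatives. Tmem14c, a mitochondrial porphyrin transporter, passed the adjusted p just below the fold threshold (0.94, adjusted p = 0.00210). Abcb6 (−1.05, adjusted p = 0.0988) and Ppox (−0.53, adjusted p = 0.140) did not pass. Alas2, the erythroid form of the enzyme, was at 4.86 to 6.24 CPM in PBS and at 2.25, 14.9 and 0.709 CPM in WGP. It was highest in WGP replicate 2, as were the globin mRNAs Hba-a1 and Hbb-bs.

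Of the genes for heme uptake, transport and breakdown 13 of 13 were tested, with 1 called higher (background 4.53%), 2 called lower (background 4.96%) and a median of −0.14. Cd163, the scavenger receptor for hemoglobin bound to haptoglobin, fell from 602, 1320 and 1990 CPM in PBS to 31.3, 73.8 and 67.6 CPM in WGP (log2 fold change −4.50, adjusted p = 0.000153). Hp, which encodes haptoglobin, rose from 189, 103 and 59.0 CPM to 443, 362 and 466 CPM (1.86, adjusted p = 0.00495). The groups did not overlap for either mRNA. Cd163 is also among the 11 resident macrophage markers and Hp among the 9 monocyte markers, so these genes stand in 2 lists each.

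Slc46a1, a folate transporter also described as a heme carrier, was at 14.0 to 16.8 CPM in PBS and fell to between 1.76 and 3.12 CPM in WGP (−2.71, adjusted p = 0.00145). Por, the reductase that supplies heme oxygenase with electrons, passed the adjusted p only (0.53, adjusted p = 0.0449), and missed it in 10 of 18 alternatives (up to 0.174). Not called were Hmox2, the constitutive heme oxygenase (−0.36, adjusted p = 0.242), Blvra, the main biliverdin reductase (0.60, adjusted p = 0.122), Slc48a1, which moves heme out of the phagolysosome (0.16, adjusted p = 0.595), and Flvcr1, a heme exporter (0.31, adjusted p = 0.337). Hpx, encoding the heme carrier hemopexin, was at 1.28 CPM or less in every library.

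**Figure D5:**
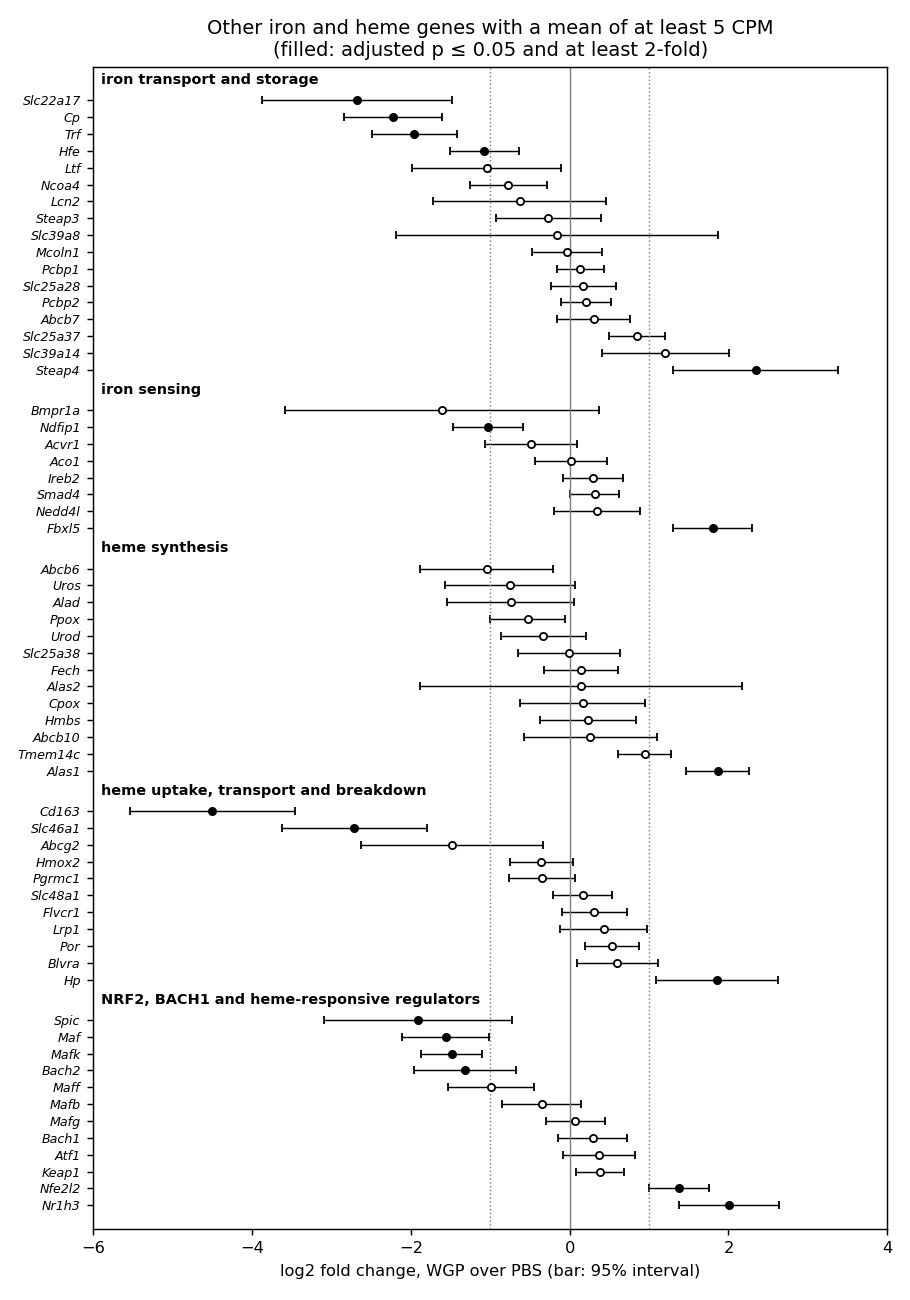
Log2 fold change of WGP over PBS with its 95% interval for the other iron and heme genes and their regulators with a mean of at least 5 CPM, grouped by list and filled where the adjusted p was at most 0.05 and the change at least 2-fold. Cd163 (−4.50) lies farthest to the left and Steap4 (2.34) farthest to the right.

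The regulators around NRF2, BACH1 and heme were listed apart, and 12 of 12 were tested with 2 called higher (background 4.53%), 4 called lower (background 4.96%) and a median of −0.14. Nfe2l2 (NRF2), which activates antioxidant and ferritin genes, rose from 188, 228 and 249 CPM in PBS to 657, 576 and 493 CPM in WGP (log2 fold change 1.38, adjusted p = 0.000411). Bach1, the heme-sensing repressor of the same genes, was at 143 to 239 CPM in PBS and 229 to 269 CPM in WGP (0.29, adjusted p = 0.386). Mafk, a small MAF protein that pairs with both, fell by 1.49 on the log2 scale (adjusted p = 0.000272). Nr1h3 (LXRα), a lipid-sensing receptor of macrophages, rose (2.01, adjusted p = 0.000949).

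The macrophage factors Maf and Spic fell. Maf was at 477, 865 and 943 CPM in PBS and at 250, 299 and 224 CPM in WGP (−1.56, adjusted p = 0.00179), and with Y-linked counts as a term it missed the fold threshold (−0.89). Spic, which is needed for the iron-recycling macrophages of the spleen, was low, at 7.62, 13.8 and 18.9 CPM in PBS and at 3.12, 1.86 and 5.77 CPM in WGP (−1.91, adjusted p = 0.0380). It was called in 12 of 18 alternatives, and its adjusted p reached 0.351 among the 18. Bach2, named after its values were seen, fell as well (−1.32, adjusted p = 0.0118), a call lost without PBS replicate 2 and without WGP replicate 3.

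Targets of NRF2 outside iron and heme, with 15 of 16 genes tested, had 6 called higher (background 4.53%) and 0 called lower (background 4.96%) by edgeR, and a median log2 fold change of 1.11. DESeq2 and limma-voom each called 6 higher and 0 lower, and 10 of the 15 had an unadjusted p below 0.05 in edgeR. The count called higher was 5 with Y-linked counts as a term, without PBS replicate 1 and without both libraries that stood apart, 4 without WGP replicate 2 and 3 without PBS replicate 2, where Txnrd1, Slc7a11 and Pgd were still called. Slc7a11, the cystine importer, rose from 36.7, 37.9 and 20.6 CPM in PBS to 170, 168 and 128 CPM in WGP (2.29, adjusted p = 0.000173). Pgd, of the pentose phosphate pathway (1.13, adjusted p = 0.000382), and Txnrd1, a thioredoxin reductase (1.27, adjusted p = 0.00122), rose as well. G6pdx, of the same pathway as Pgd, passed the adjusted p only (0.66, adjusted p = 0.0128, and up to 0.0747 among the alternatives).

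Beside Hpgd, 17 of 19 other prostaglandin genes were tested, with 3 called higher (background 4.53%), 2 called lower (background 4.96%) and a median of 0.10. Ptgs2 (COX-2), the inducible enzyme that starts prostaglandin synthesis, rose from 87.9, 119.8 and 94.3 CPM in PBS to 1044, 699.5 and 700.4 CPM in WGP (log2 fold change 3.02, adjusted p = 1.9e-05). Ptgs1, the constitutive form, fell by 1.49 on the log2 scale (adjusted p = 0.000799). Of the terminal synthases 2 were called, in opposite directions, and Ptges2, Ptges3, Tbxas1, Ptgis and Ptgds, named after their values were seen, were not. Ptges, the inducible synthase of prostaglandin E2, rose from 1.56, 2.11 and 1.59 CPM to 14.3, 51.5 and 30.6 CPM (4.196, adjusted p = 0.000266 and 0.0525 by limma-voom), while Hpgds, the hematopoietic synthase of prostaglandin D2, fell from 122, 187 and 207 CPM to 30.2, 22.6 and 44.6 CPM (−2.41, adjusted p = 0.000276). Ptger2, a receptor for prostaglandin E2 named after its values were seen, rose (1.97, adjusted p = 0.00883), a call lost without WGP replicate 1 (adjusted p = 0.0579). Slco2a1, the transporter that brings prostaglandins to the enzyme encoded by Hpgd, was at 0 in all PBS libraries and at 0, 2.20 and 0.538 CPM in WGP.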

How the data were processed

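The authors aligned single-end reads of 75 bases to mm10 (GRCm38.p6) with STAR 2.6, obtained gene counts with HTSeq 0.10.0 and deposited raw counts without normalization, in 1 table with 1 column per library. The annotation release, strand setting and handling of duplicate reads are not given in the sources used here. Samples were grouped by their GEO labels, 3 PBS and 3 WGP, and 0 columns were left out.

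WGP was tested against PBS with edgeR 4.0.16 (R 4.3.3, quasi-likelihood, TMM) on 14429 protein-coding genes whose RLE-normalized counts added up to 10 or more, with Benjamini-Hochberg adjustment over all of them. A call needed an adjusted p no higher than 0.05 and a log2 fold change of 1 or more in size. Standard errors were taken from the log2 fold change and the root of F, and intervals are 95%. Libraries held 35334645 to 43341834 counts, and replicates differed by more than counting error (chi-square per degree of freedom 60.3 to 245 over genes). Alternatives covered scaling (RLE, upper quartile, library totals), DESeq2 1.42.0, limma-voom 3.58.1, filters, a replicate block, Y-linked counts as a term and leaving out each library. Leaving out PBS replicate 1 and WGP replicate 2 together was chosen after seeing the data. The fits were tested on simulated data. The hairpin search was tested only on planted copies of its own pattern, which does not show how many real elements it finds. Symbols came from GENCODE vM21, and levels per kilobase use the merged exons of that annotation.

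The 9 genes, the lists and the tests were chosen with earlier results of these data known. Named beside the 9 were the 4 genes with the smallest p of each iron, heme, regulator and prostaglandin list, genes set by role, marker genes of the cell types and the 3 nearest profiles of the 2 members with the largest change. The values of 1 gene are withheld and not given.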

Additional observations from a re-analysis of the deposited data

How the results depend on the processing

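Fth1, Tfrc and Hpgd were called under all 18 alternatives, and Ftl1, Slc11a2 and Blvrb under none. The count of members called stayed between 3 and 5 when libraries were left out, and was 4 under the other fits. With a log2 fold change of 2 or more in size required, the count of members was 1 (Hpgd) and that of all genes 568, against 1369. At the adjusted p alone all genes numbered 2071, and DESeq2 called 1703. Leaving out libraries moved the count of all genes from 1144 to 1602, the count of called genes in the 4 iron and heme lists from 10 to 13 (14 by DESeq2), the log2 Fth1 to Ftl1 ratio difference from 0.93 to 1.14 and that of Slc11a1 to Slc11a2 from 1.26 to 1.40. Blvrb turned from −0.35 to 0.024 with Y-linked counts as a term (adjusted p = 1), and that fit called Slc11a1 and lost Slc40a1, so that 2 members were called higher and 2 lower. Scaling by library totals only moved the median of all genes from −0.05 to −0.16 and changed no call of a member.

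With the replicate number as a block 4 members and 1341 genes were called. The numbers did not pair the samples, since the deviations of PBS and WGP libraries of the same number correlated at 0.036, −0.066 and 0.055, and PBS replicate 2 correlated better with WGP replicate 3 (0.054). Groups of 3 limit the ratio tests to a p of 0.1, and the sex of the mice and the treatment cannot be told apart beyond PBS replicate 1.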
